A study of Oryza sativa with 12 samples.

Results

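A set of 69 rice genes differed widely between libraries that were made as replicates of one another. They were chosen by 4 libraries in which they were high and 2 in which they were low. A member had a level of at least 20 CPM (the count of a gene divided by the total of its library and multiplied by 1000000) in OsbZIP62V replicates 1 and 3 and in Nipponbare replicates 1 and 2. Its CPM in OsbZIP62V replicate 2 was at most 25% of both other OsbZIP62V replicates, and its CPM in Nipponbare replicate 3 was at most 25% of both other Nipponbare replicates. Of 35679 listed genes, 5267 reached 20 CPM in the 4 libraries, 83 also met the condition on OsbZIP62V, 112 met that on Nipponbare, and 69 met both. These 69 were 83.1% of the first group and 61.6% of the second. The mirror of the rule, with OsbZIP62V replicate 2 and Nipponbare replicate 3 at least 4 times as high as both others of their group, was met by 0 genes in either group.

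The libraries held leaf RNA of seedlings at the four-leaf stage, grown in culture solution with 16 h of light and not stressed. The OsbZIP62V plants overexpressed OsbZIP62, a bZIP transcription factor gene, fused to the VP64 activation module, and their wild type (WT) was the cultivar Kitaake. The osbzip62 plants were mutated in the same gene by CRISPR/Cas9, and their WT was the cultivar Nipponbare. Each of the 4 groups had 3 biological replicates, each a pool of 30 plants, and each transgenic group was 1 line. The values of the OsbZIP62V and Nipponbare libraries chose the members, so they are given as a description, and nothing is read from a fit that includes them. The osbzip62 and Kitaake libraries were not used in the choice, and they differ from each other in cultivar and in OsbZIP62, which cannot be told apart.

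By keyword classes of the annotated loci, 12 members belonged to the wall (3 for loosening, 6 for cellulose, xylan or lignin synthesis and 3 with a fasciclin domain) and 3 to photosynthesis or chlorophyll synthesis. In grasses, vascular and supporting cells lay down a secondary wall of cellulose, xylan and lignin after they stop growing, while expanding cells loosen a thinner primary wall with expansins and glucanases. In mesophyll cells, chlorophyll a/b-binding proteins collect light for the photosystems, and the amounts of their transcripts in leaves are known to vary with light and time of day.

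Total counts were 9224755 to 19759728 per library, lowest and highest in Kitaake. The transgene set the OsbZIP62V group apart from the others as labelled, with OsbZIP62 (LOC_Os07g48660) at 1152, 1071 and 992 CPM in OsbZIP62V replicates 1, 2 and 3 and at most 1.03 CPM in any library of the other groups. OsbZIP62V replicate 2 thus carried the transgene at the level of its group. Reads of osbzip62 libraries over a gene altered by CRISPR/Cas9 do not check that mutation. Counts of replicates within each group differed by more than sampling noise (chi-square per degree of freedom of at least 8.86), so no library was a repeat of another. The loci named here were paired with the identifiers of the tables for 59 members, and the other 10 appear by identifier or in counts. All 59 were paired through the study's list of genes changed in OsbZIP62V, which was made from these libraries, so that list is no independent evidence on them. Of the 59 paired members, 0 appear in the copy used here of the study's list of loci higher in OsbZIP62V and lower in osbzip62, which holds 84 loci and may not be whole. The other 10 could not be looked up in it.

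Over the 69 members, the median level was 48.4, 3.24 and 121 CPM in OsbZIP62V replicates 1, 2 and 3. It was 139, 47.9 and 3.95 CPM in Nipponbare replicates 1, 2 and 3. In the libraries that the rule did not use, the median was 3.25, 2.18 and 1.42 CPM in the Kitaake replicates and 12.1, 36.5 and 6.31 CPM in the osbzip62 replicates. The Kitaake libraries therefore lay at the level of the low OsbZIP62V replicate, and the osbzip62 libraries lay between the low and the high Nipponbare libraries. Together the members took 0.786%, 0.0527% and 1.65% of the counts of the OsbZIP62V replicates and 2.17%, 1.93% and 0.0897% of those of the Nipponbare replicates. They took 0.0363% to 0.0513% of the counts in Kitaake and 0.238%, 0.793% and 0.140% in osbzip62 replicates 1, 2 and 3. The median CPM over all 5267 genes past 20 CPM moved little beside this, between 47.0 and 63.9 over the 12 libraries. Fewer cells of a type and less RNA per cell cannot be told apart in these bulk samples.

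**Figure D1:**
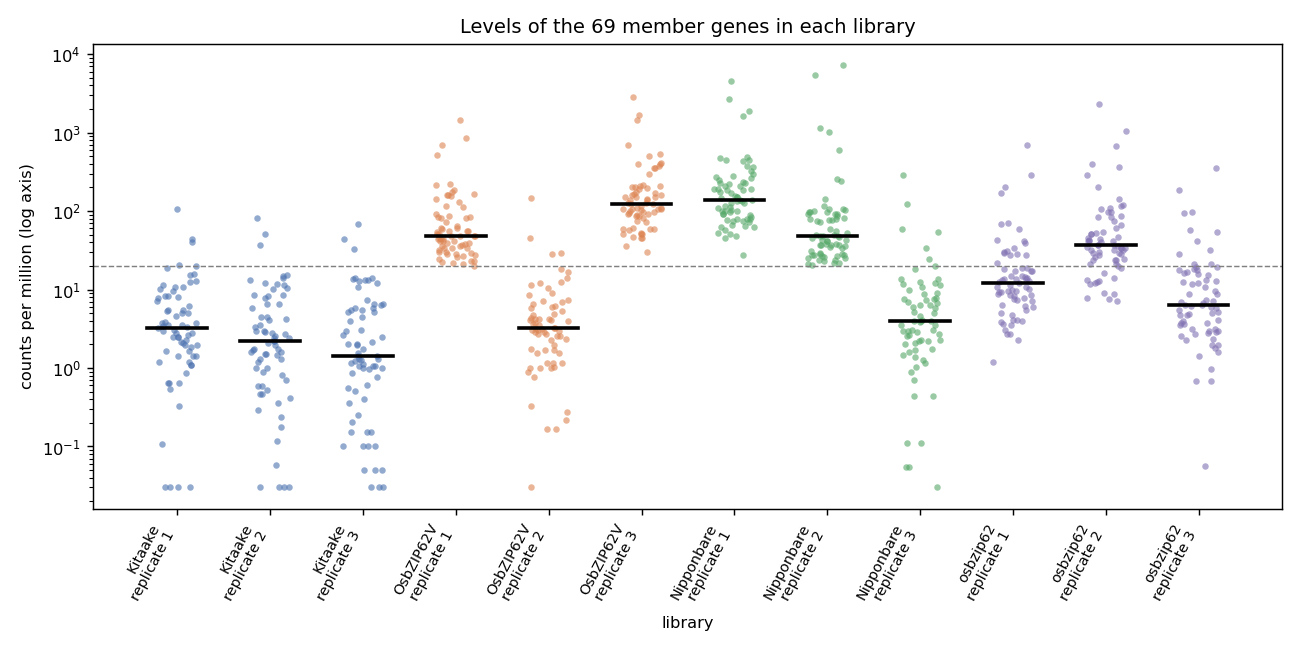
Level of each of the 69 members (points) in the 12 libraries, in CPM on a log axis, with the median of each library as a black bar and the minimum of 20 CPM as a dashed line; genes without a count are drawn at the bottom edge. The medians of OsbZIP62V replicate 2 (3.24) and Nipponbare replicate 3 (3.95) lie near those of Kitaake (1.42 to 3.25), and osbzip62 replicate 2 (36.5) lies above the other osbzip62 replicates (12.1 and 6.31).

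The high libraries of a group were not alike either. OsbZIP62V replicate 3 was above replicate 1 in 68 of 69 members, where 65.9% of the 5267 genes showed that order, and the median ratio of replicate 3 to replicate 1 was 2.24. The exception was LOC_Os01g01660, an isoflavone reductase homolog. Nipponbare replicate 1 was above replicate 2 in 63 of 69 members, against 68.4% of the 5267 genes, and the median ratio of replicate 2 to replicate 1 was 0.381. The 6 exceptions were both chlorophyll a/b-binding protein genes, annexin D4, a carboxyl-terminal peptidase and the identifiers OS03G0251000 and OS04G0401000, named after their values were seen. Across the 69 members the fall in OsbZIP62V replicate 2 and the fall in Nipponbare replicate 3 had a Spearman rho of 0.55, a description over genes that share these libraries and are not independent.

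The Kitaake libraries lay near the low OsbZIP62V replicate in the members, as they did over the 5267 genes. OsbZIP62V replicate 2 lay within the range of the 3 Kitaake libraries in 34 members (49.3%) and in 39.2% of the 5267 genes. It lay above all of them in 26 members (37.7%), close to the 35.9% of these genes. It lay below all of them in 9 members (13.04%), against 24.97% of these genes. The median ratio of OsbZIP62V replicate 2 to the Kitaake mean was 1.31, and over the 5267 genes it was 1.03. OsbZIP62V replicates 1 and 3 lay above every Kitaake library in 69 of 69 members, against 25.4% of the 5267 genes, an order that the rule itself favoured. In 64 members every Kitaake library was under 20 CPM. The exceptions, named for that reason, were LOC_Os01g41710, LOC_Os02g41630, LOC_Os05g13940, OS04G0401000 and OS08G0237000. Only 4.80% of the 5267 genes were under 20 CPM in every Kitaake library.

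The osbzip62 group also showed a spread, in libraries that the rule had not used. Replicate 2 was the highest of its group in 68 of 69 members, while it was the highest in 39.3% of the 5267 genes. It was at least 2 times both other replicates in 60 of 69 members and in 2.01% of the 5267 genes, and at least 4 times both in 14 members and in 0.323% of the genes. The median ratio of replicate 2 to the mean of replicates 1 and 3 was 4.25 over the members and 1.02 over the 5267 genes. Replicate 3 was the lowest in 61 members, against 46.3% of the genes. With 1 library high, this order has no replicate and was not tested. The member in which replicate 2 was not the highest was LOC_Os06g36560, annotated as inositol oxygenase, an enzyme that turns myo-inositol into glucuronic acid. Nipponbare replicates 1 and 2 exceeded every osbzip62 library in 54 of 69 members, against 17.8% of the 5267 genes. Nipponbare replicate 3, held low by the rule, lay below every osbzip62 library in 51 members, against 55.5% of the 5267 genes. It lay within their range in 18 members, or 26.1%, near the 22.3% of these genes. Over all genes that passed the filter, deviations from the group mean in osbzip62 replicate 2 correlated with those in Nipponbare libraries. The correlation was 0.55 with Nipponbare replicate 1 and -0.60 with Nipponbare replicate 3.

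Genes that met the rule in 1 group alone had smaller median ratios within osbzip62. In the 14 genes that met it in OsbZIP62V alone, the median ratio of osbzip62 replicate 2 to the mean of replicates 1 and 3 was 1.87, and replicate 2 was at least 2 times both others in 5. In the 43 genes that met it in Nipponbare alone the median ratio was 1.81, and replicate 2 was at least 2 times both others in 16. These sets differ from the members in median level too, at 7.43, 8.92 and 6.10 CPM in Kitaake for the first and 14.4, 13.9 and 14.3 CPM for the second, and the difference between the sets was not tested.

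To ask whether the members differ where the rule used neither group, the 3 osbzip62 libraries were compared with the 3 Kitaake libraries. The test was edgeR's quasi-likelihood test over all 20032 genes that passed its filter on low counts, and a call needed an adjusted p under 0.05 with a log2 fold change beyond 1 in either direction. Of the 69 members, 55 were called higher in osbzip62, where 10.7% of all tested genes were called higher. At an unadjusted p under 0.05 there were 60 higher, and the share of all tested genes at that level was not counted. By edgeR 0 members were called lower, while 7.45% of all tested genes were. There were also 0 lower at an unadjusted p under 0.05. DESeq2 called 0 lower, beside 1548 of the 28327 genes with a count in these libraries. The filter was passed by 68 members. In 49 the Kitaake libraries alone held enough counts to pass, and 38 of those were called. The other 19 passed only through the osbzip62 libraries, where they are high, and 17 of those were called, so their calls add no support. They were LOC_Os01g11620, LOC_Os01g54620, LOC_Os01g60770, LOC_Os01g65690, LOC_Os04g33450, LOC_Os04g58200, LOC_Os05g04500, LOC_Os05g06780, LOC_Os05g48270, LOC_Os05g48900, LOC_Os06g16640, LOC_Os07g06680, LOC_Os08g38170, LOC_Os08g43400, LOC_Os09g25490, LOC_Os10g32980, LOC_Os10g40720, LOC_Os11g42500 and LOC_Os11g42550. Every osbzip62 library lay above every Kitaake library in 47 of 69 members, compared with 28.2% of the 5267 genes. The ratio of group means had a median of 7.60 over the 69 members and of 1.01 over the 5267 genes. Without filtering, all 69 members had a median log2 fold change of 2.88, while the median of all genes then tested was 0.081.

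Leaving out osbzip62 replicate 2, the library that stood apart, lowered both the sizes and the count. The median log2 fold change over the 68 tested members was 2.87 with all 6 libraries and 1.98 without it. PORA (LOC_Os04g58200) went from 8.09 to 5.58 and LOC_Os01g52240 from 5.84 to 4.15. Without osbzip62 replicate 2, 44 members were called higher, beside 1954 of all 20469 genes tested. Without Kitaake replicate 2, whose removal lowered the count most, 38 were called higher, beside 2014 of 20760 genes. Of the 55 called members, 38 kept the call whichever of the 6 libraries was left out, and the share of all called genes that did so was not counted. Of these 38, PORA, LOC_Os01g11620, LOC_Os01g60770, LOC_Os01g65690, LOC_Os06g16640, LOC_Os08g38170, LOC_Os08g43400, LOC_Os10g40720, LOC_Os11g42500 and LOC_Os11g42550 had passed the filter only through osbzip62. Their calls add no support. DESeq2 called 49 members higher, beside 2326 of the 28327 genes with a count in these libraries. Among the members called by edgeR, it did not call CESA9 (LOC_Os09g25490, adjusted p = 0.127), LOC_Os05g48900 (0.274), LOC_Os05g04500 (0.129), LOC_Os02g41630 (0.0715), LOC_Os04g33450 (0.103) or LOC_Os03g60340 (0.0656), and it gave no adjusted p for LOC_Os01g65690 and LOC_Os11g42500. The replicates are labelled as biological, and p-values measure the spread between these pools of plants.

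**Figure D2:**
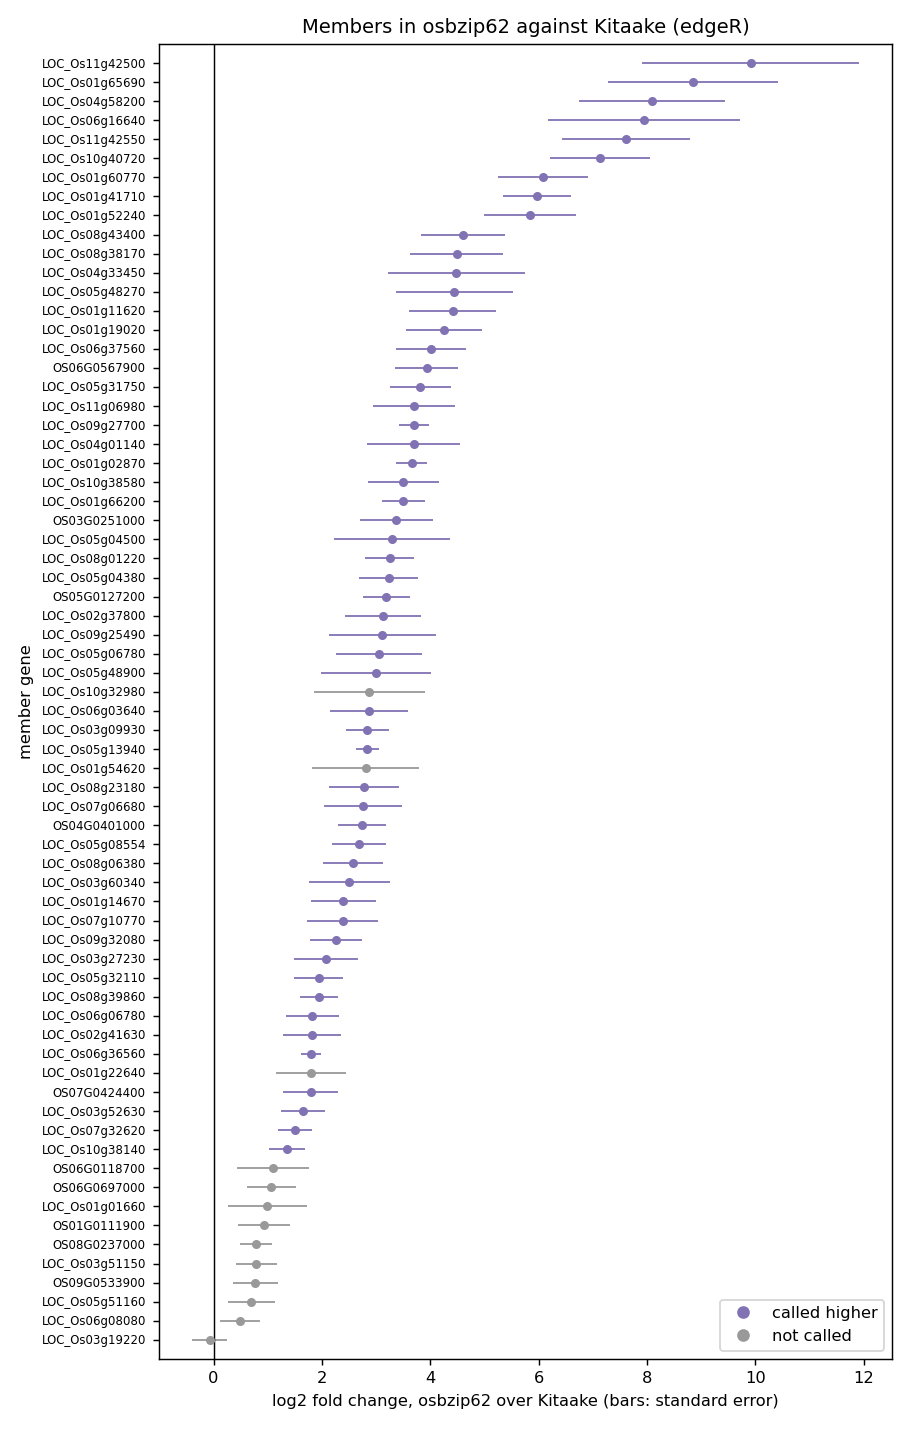
Log2 fold change of each tested member in osbzip62 over Kitaake (points, with standard errors as bars) from edgeR's quasi-likelihood fit of 3 against 3 libraries, ordered by size. The 55 called members are purple and the 13 tested members that were not called are grey; values run from -0.073 to 9.91.

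The class of photosynthesis and chlorophyll synthesis held 3 members. Per length and depth, LOC_Os01g41710, chlorophyll a-b binding protein 2, had the highest mean RPKM of the members over the 12 libraries. It had 20.7, 15.4 and 14.1 CPM in Kitaake and 691, 2291 and 359 CPM in osbzip62. Its level was 1467, 45.6 and 2823 CPM in OsbZIP62V and 4544, 7254 and 290 CPM in Nipponbare. The lowest osbzip62 library was far above the highest Kitaake library, and the low Nipponbare replicate lay below all of osbzip62. In osbzip62 against Kitaake it rose by 5.96 on the log2 scale (SE 0.63, edgeR adjusted p = 7.95e-05). LOC_Os01g52240, similar to a type I chlorophyll a/b-binding protein, had 7.81, 8.48 and 5.16 CPM in Kitaake and 172, 1059 and 93.4 CPM in osbzip62. It had 520, 18.5 and 689 CPM in OsbZIP62V and 1645, 5482 and 59.97 CPM in Nipponbare. It followed the same order as LOC_Os01g41710 within Nipponbare and osbzip62, with a log2 fold change of 5.84 (SE 0.85, edgeR adjusted p = 5.77e-04) and no overlap between osbzip62 and Kitaake. Genes of this family are near copies of each other, and how the counting shared reads among them is uncertain.

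LOC_Os04g58200, protochlorophyllide reductase A (PORA), makes chlorophyllide from protochlorophyllide in the light. It had 0.650, 0.530 and 0.405 CPM in Kitaake and 33.8, 402 and 17.6 CPM in osbzip62. Its levels were 166, 2.31 and 503 CPM in OsbZIP62V and 473, 79.8 and 1.76 CPM in Nipponbare. Of the members with more than 3 counts in Kitaake it had the largest rise in osbzip62, with a log2 fold change of 8.09 (SE 1.35, edgeR adjusted p = 1.30e-03) and groups that did not overlap. Unlike the chlorophyll a/b-binding protein genes, PORA was lower in Nipponbare replicate 2 than in replicate 1. All 3 members of this class were called higher in osbzip62, PORA having passed the filter only through osbzip62.

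The wall-loosening class had 3 members, and 3 were called higher in osbzip62, both expansins having passed the filter only through osbzip62. LOC_Os10g40720, expansin-B3, had 1.08, 0.235 and 0.101 CPM in Kitaake and 30.2, 119 and 16.9 CPM in osbzip62. In the groups used by the rule it had 48.6, 3.79 and 201 CPM (OsbZIP62V) and 224, 96.6 and 12.3 CPM (Nipponbare). Expansins loosen the contacts between wall polymers without cutting them. The Kitaake and osbzip62 ranges of expansin-B3 did not overlap (log2 fold change 7.13, SE 0.92, edgeR adjusted p = 2.82e-04), although the Kitaake levels rest on 16 counts in all. LOC_Os01g60770, expansin-A2, had 0.325, 0.118 and 0.354 CPM in Kitaake and 7.61, 42.2 and 8.68 CPM in osbzip62. It was at 26.6, 2.36 and 87.4 CPM in OsbZIP62V and at 154, 46.7 and 5.05 CPM in Nipponbare. Expansin-A2 was, like expansin-B3, highest in replicate 2 of osbzip62 and above every Kitaake library in all of them, and its log2 fold change in osbzip62 against Kitaake was 6.09 (SE 0.83, edgeR adjusted p = 3.82e-04). LOC_Os03g52630, endoglucanase 10, which belongs to the enzymes that cut glucan chains, had 18.6, 12.2 and 12.8 CPM in Kitaake and 39.1, 85.1 and 21.5 CPM in osbzip62. It was higher by a log2 fold change of 1.65 (SE 0.40, edgeR adjusted p = 0.0101) with groups that did not overlap, and the call was lost without Kitaake replicate 2 or without osbzip62 replicate 2.

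**Figure D3:**
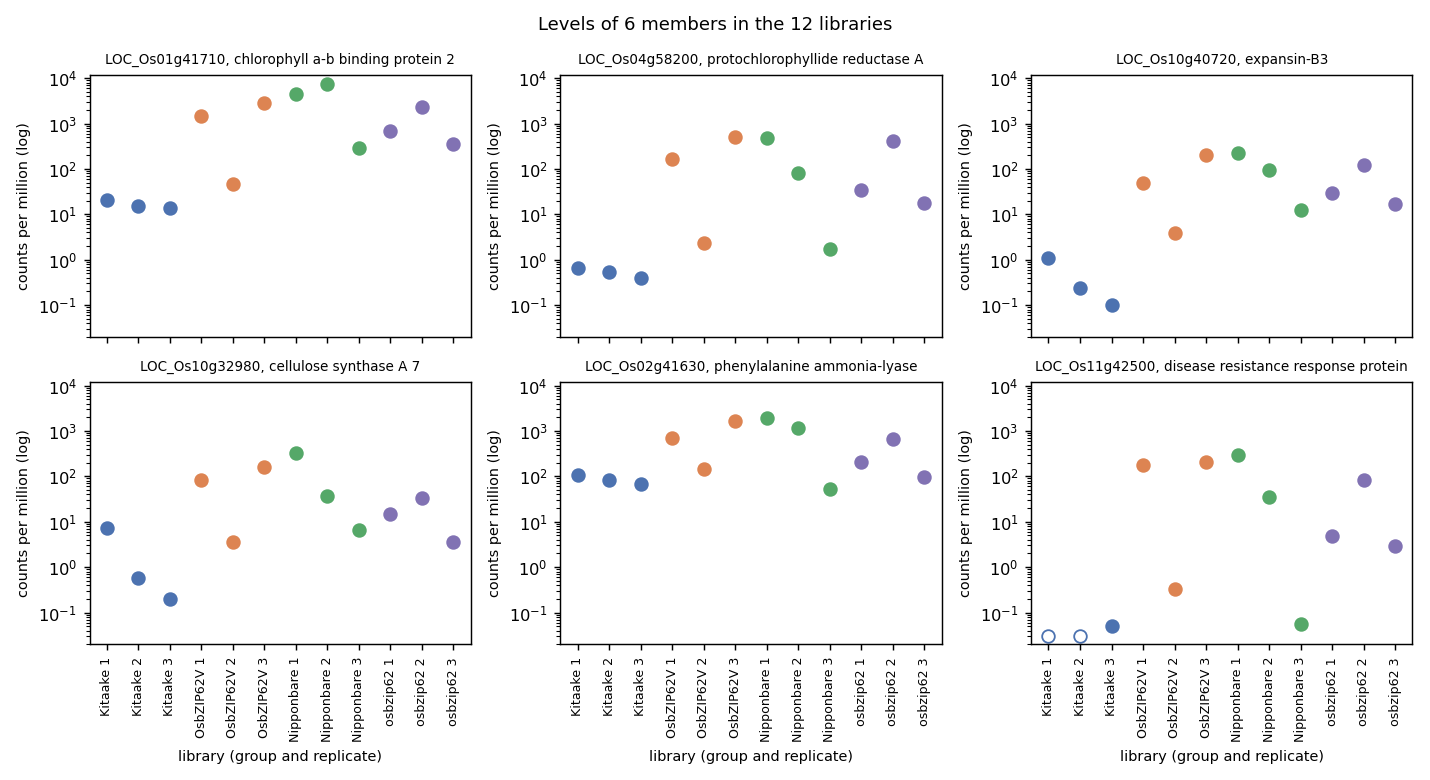
Levels of 6 members in each of the 12 libraries, in CPM on log axes, coloured by group; open circles at the bottom edge are libraries without a count. In each panel OsbZIP62V replicate 2 and Nipponbare replicate 3 lie below the other replicates of their group, an order that the rule fixed. In each panel osbzip62 replicate 2, which the rule did not use, is the highest of its group.

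In the class of cellulose, xylan and lignin synthesis, 4 of 6 members were called higher in osbzip62, CESA9 after passing the filter only through osbzip62. In rice, the cellulose synthase subunits CESA4, CESA7 and CESA9 are known for the cellulose of secondary walls, and all were members. CESA7 (LOC_Os10g32980) had 7.15, 0.589 and 0.202 CPM in Kitaake and 14.9, 34.2 and 3.61 CPM in osbzip62. It had 82.2, 3.63 and 164 CPM in OsbZIP62V and 325, 37.7 and 6.69 CPM in Nipponbare. Kitaake replicate 1 lay above the lowest osbzip62 library, so the groups overlapped, and the log2 fold change of 2.87 (SE 1.03, edgeR adjusted p = 0.0544) was not called. CESA9 (LOC_Os09g25490) had 5.53, 0.824 and 0.152 CPM in Kitaake and 12.1, 35.1 and 3.72 CPM in osbzip62. Its groups overlapped in the same way, and its log2 fold change of 3.11 (SE 0.99, edgeR adjusted p = 0.0340) was called with all 6 libraries but not by DESeq2, nor without Kitaake replicate 2, Kitaake replicate 3 or osbzip62 replicate 2. CESA4 (LOC_Os01g54620), named here after its values were seen because it completes the 3 subunits, had 4.99, 0.706 and 0.0506 CPM in Kitaake and 7.28, 24.8 and 4.12 CPM in osbzip62. Its log2 fold change was 2.81 (SE 0.98, edgeR adjusted p = 0.0506) and was not called. Over the 12 libraries the 3 subunits kept the same library as the highest of each group, Kitaake replicate 1, OsbZIP62V replicate 3, Nipponbare replicate 1 and osbzip62 replicate 2.

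A further cellulose synthase gene, CESA8 (LOC_Os07g10770), had 11.4, 6.59 and 6.63 CPM in Kitaake and 31.3, 96.0 and 8.85 CPM in osbzip62. Its groups overlapped at the lowest osbzip62 library, and its log2 fold change was 2.39 (SE 0.66, edgeR adjusted p = 0.0182), a call that was lost without Kitaake replicate 2 or 3. LOC_Os02g41630, phenylalanine ammonia-lyase, which takes phenylalanine into the phenylpropanoid pathway that leads to lignin, was the most abundant of the class per length, with a mean of 148 RPKM over the 12 libraries. It had 105, 81.9 and 68.2 CPM in Kitaake and 203, 670 and 98.0 CPM in osbzip62. Its levels were 692, 147 and 1680 CPM in OsbZIP62V and 1895, 1135 and 53.99 CPM in Nipponbare. Nipponbare replicate 3 was thus below every Kitaake library. The osbzip62 and Kitaake ranges overlapped, and the log2 fold change of 1.82 (SE 0.53, edgeR adjusted p = 0.0247) lost its call without any one of the Kitaake libraries and without osbzip62 replicate 2, and was not called by DESeq2. The remaining member of the class that was called was COBRA-like protein 3 (LOC_Os05g32110), with a log2 fold change of 1.94 (SE 0.45, edgeR adjusted p = 8.35e-03).

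All 3 members with a fasciclin domain, which is found in extracellular adhesion proteins, were called higher in osbzip62 by edgeR, but LOC_Os05g48900 was not by DESeq2, and LOC_Os05g48900 and LOC_Os07g06680 had passed the filter only through osbzip62. LOC_Os08g23180, annotated as fasciclin-like arabinogalactan protein 8, had 2.82, 1.77 and 1.27 CPM in Kitaake and 8.47, 29.0 and 4.002 CPM in osbzip62. Its groups did not overlap, and its log2 fold change was 2.78 (SE 0.65, edgeR adjusted p = 8.06e-03). LOC_Os07g06680 had 2.60, 1.53 and 0.506 CPM in Kitaake and 7.23, 21.2 and 2.87 CPM in osbzip62. It also showed no overlap, but its log2 fold change of 2.75 was not called without Kitaake replicate 2 or 3. LOC_Os05g48900 had 2.49, 0.353 and 0 CPM in Kitaake and 6.31, 11.8 and 1.41 CPM in osbzip62. Its Kitaake replicate 1 exceeded the lowest osbzip62 library, and its log2 fold change of 2.99 (SE 1.02, edgeR adjusted p = 0.0451) was lost without any of 4 of the 6 libraries, the exceptions being Kitaake replicate 1 and osbzip62 replicate 3.

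Some members, the secondary-wall cellulose synthases among them, were also higher in Kitaake replicate 1 than in the rest of its group, at low counts. Kitaake replicate 1 was the highest of its group in 41 of 69 members, against 31.2% of the 5267 genes. It was at least 2 times both other replicates in 15 of 69 members and in 0.418% of the 5267 genes, and at least 4 times both in 8 members and in 0.171% of the genes. The 8 were CESA4, CESA7, CESA9, the fasciclin-domain gene LOC_Os05g48900, the peroxidase LOC_Os05g04500, expansin-B3, a DOMON domain gene (LOC_Os05g48270) and a DUF662 gene (LOC_Os04g33450), named after their values were seen. In CESA7, where this gap was largest, the counts behind the levels were 66, 10 and 4. Over all members the median ratio of Kitaake replicate 1 to the mean of the others was 1.38, and over the 5267 genes it was 0.986. Kitaake replicate 1 was the shallowest library, at 9224755 counts, and the part of its depth in this order was not tested.

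**Figure D4:**
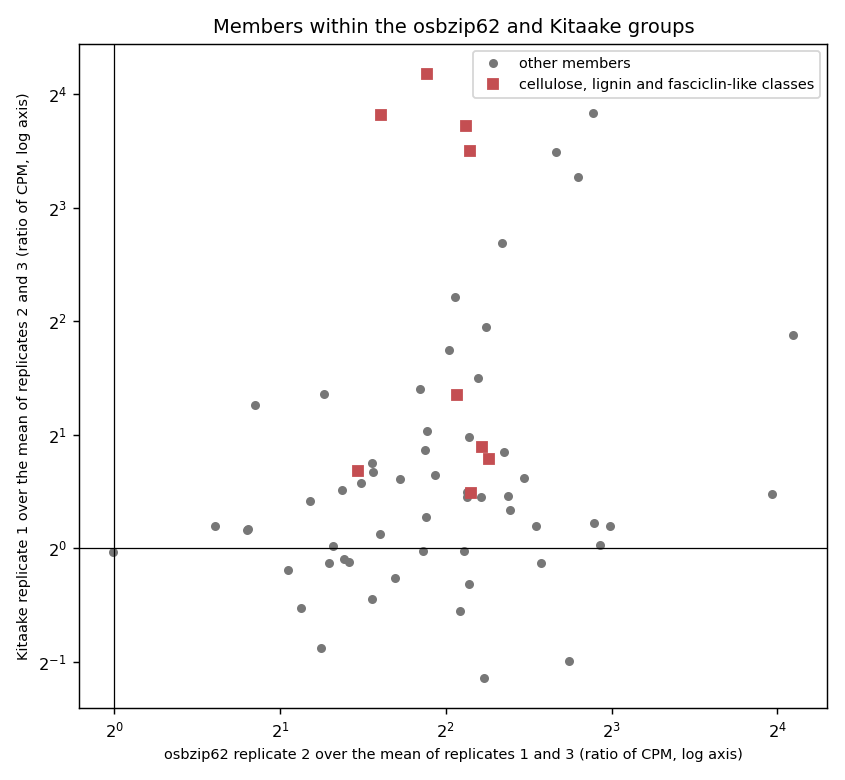
Ratio of Kitaake replicate 1 to the mean of Kitaake replicates 2 and 3 (vertical, log axis) against the ratio of osbzip62 replicate 2 to the mean of osbzip62 replicates 1 and 3 (horizontal, log axis) for 65 members, leaving out 4 without a count in Kitaake replicate 1. Nearly all points lie right of 1, where the median over the 69 members is 4.25, while on the vertical axis the cellulose and fasciclin genes (red) reach the top and the median is 1.38.

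The disease resistance response genes had almost no counts in 5 of the 12 libraries, the Kitaake libraries, OsbZIP62V replicate 2 and Nipponbare replicate 3. LOC_Os11g42500, of a family of proteins named for their induction in plant defence, had 0, 0 and 0.0506 CPM in Kitaake and 4.75, 82.9 and 2.93 CPM in osbzip62. It had 176, 0.330 and 212 CPM in OsbZIP62V and 298, 35.4 and 0.0549 CPM in Nipponbare. In Kitaake this was a single count in 3 libraries, and the ratio of pooled counts in osbzip62 to Kitaake was 1344 with a 95% counting interval of 241 to 53123, which covers counting error only. The fitted log2 fold change was 9.91 (SE 2.00, edgeR adjusted p = 3.85e-03), and DESeq2 gave no adjusted p. LOC_Os11g42550, of the same family, had 0, 0 and 0.101 CPM in Kitaake and 2.70, 23.8 and 5.13 CPM in osbzip62. It had 186, 0 and 200 CPM in OsbZIP62V and 225, 43.0 and 0.0549 CPM in Nipponbare. Both genes were highest in osbzip62 replicate 2, while the order of osbzip62 replicates 1 and 3 was opposite in the 2 genes, and reads shared between such related genes make each one's own count uncertain. The ratio for LOC_Os11g42550 was 237 (95% counting interval 65.2 to 1959), with 2 counts in Kitaake, and both genes had passed the filter only through osbzip62. The chitinase-like gene LOC_Os09g32080, the last of the defence class, had 5.53, 2.18 and 2.13 CPM in Kitaake and 14.3, 26.0 and 7.33 CPM in osbzip62. It rose by 2.25 on the log2 scale (SE 0.48, edgeR adjusted p = 5.04e-03).

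LOC_Os01g65690, similar to a DOPA dioxygenase, and LOC_Os06g16640, a carboxyl-terminal peptidase, had the same pattern of near absence. The first had 0, 0 and 0.0506 CPM in Kitaake and 3.51, 36.5 and 3.16 CPM in osbzip62. It was at 131, 0.165 and 199 CPM in OsbZIP62V and at 207, 104 and 0.110 CPM in Nipponbare. With 1 count in Kitaake, its ratio of pooled counts was 643 (95% counting interval 115 to 25423). The peptidase gene had 0.108, 0.0589 and 0 CPM in Kitaake and 3.61, 36.7 and 0.676 CPM in osbzip62. It was at 20.2, 0.165 and 36.0 CPM in OsbZIP62V and at 80.2, 92.3 and 0 CPM in Nipponbare. Its ratio was 305 (95% counting interval 84.1 to 2524), with 2 counts in Kitaake. Both were called higher, with edgeR adjusted p = 1.77e-03 for LOC_Os01g65690 and 6.59e-03 for LOC_Os06g16640, but both had passed the filter only through osbzip62, and DESeq2 gave LOC_Os01g65690 no adjusted p. The 1 member that the filter removed was LOC_Os01g01650, an isoflavone reductase homolog, which had 3 counts in Kitaake and 257 in osbzip62. The ratio was 73.7 (95% counting interval 24.9 to 360). Its neighbour in the tables, LOC_Os01g01660, is annotated as the same kind of enzyme. LOC_Os01g01660 had 1.41, 1.00 and 1.77 CPM in Kitaake and 1.19, 7.11 and 0.676 CPM in osbzip62, groups that overlapped widely, and its log2 fold change of 0.99 (SE 0.73, edgeR adjusted p = 0.330) was not called. How reads were divided between these 2 homologs is uncertain.

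The 3 peroxidases, enzymes that use hydrogen peroxide and are often secreted to the wall, were all called higher in osbzip62 by edgeR, LOC_Os05g04500 after passing the filter only through osbzip62. LOC_Os01g19020 had 1.08, 1.59 and 1.11 CPM in Kitaake and 18.2, 54.4 and 6.43 CPM in osbzip62. It rose without overlap of the groups, by a log2 fold change of 4.25 (SE 0.69, edgeR adjusted p = 1.11e-03). LOC_Os05g04380 had 1.41, 2.83 and 1.01 CPM in Kitaake and 14.8, 31.9 and 6.93 CPM in osbzip62. It too showed no overlap, at a log2 fold change of 3.23 (SE 0.55, edgeR adjusted p = 1.47e-03). LOC_Os05g04500 had 2.82, 0.294 and 0.101 CPM in Kitaake and 3.83, 21.5 and 1.97 CPM in osbzip62. Its groups overlapped, and its log2 fold change of 3.30 (SE 1.07, edgeR adjusted p = 0.0380) was not called by DESeq2 or without Kitaake replicate 2, Kitaake replicate 3 or osbzip62 replicate 2.

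Of 3 members annotated for lipid transfer or as GDSL lipases, enzymes that cleave lipids and esters, 2 were called higher. Both of these, LOC_Os01g11620 and LOC_Os05g06780, had passed the filter only through osbzip62, so their calls add no support. The GDSL lipase gene LOC_Os01g11620 had 0.542, 1.00 and 1.16 CPM in Kitaake and 9.39, 50.9 and 5.81 CPM in osbzip62. The groups did not overlap, and the log2 fold change was 4.41 (SE 0.80, edgeR adjusted p = 2.09e-03). The lipid transfer domain gene LOC_Os05g06780 had 1.19, 0.412 and 0.101 CPM in Kitaake and 2.27, 8.80 and 1.97 CPM in osbzip62. It rose by 3.05 on the log2 scale (SE 0.79, edgeR adjusted p = 0.0140), a call lost without Kitaake replicate 2 or 3. The second GDSL lipase gene, LOC_Os01g22640, had 2.49, 1.47 and 1.06 CPM in Kitaake and 4.05, 12.4 and 1.58 CPM in osbzip62, with overlapping groups and a log2 fold change of 1.80 (SE 0.64, edgeR adjusted p = 0.0545).

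Both cytoskeletal members were called higher in osbzip62, LOC_Os08g43400 after passing the filter only through osbzip62. LOC_Os08g43400 encodes a kinesin, a motor that moves along microtubules. It had 0.650, 0.471 and 0.557 CPM in Kitaake and 8.47, 31.5 and 3.55 CPM in osbzip62, with a log2 fold change of 4.61 (SE 0.78, edgeR adjusted p = 1.37e-03). LOC_Os09g27700, of the MAP65 family that bundles microtubules, had 1.63, 1.59 and 1.32 CPM in Kitaake and 17.2, 29.0 and 16.1 CPM in osbzip62. Its log2 fold change was 3.70 (SE 0.28, edgeR adjusted p = 9.54e-06), with an SD of 0.169 CPM in Kitaake and 7.16 CPM in osbzip62. LOC_Os09g27700 was among the 9 members in which osbzip62 replicate 2 was under 2 times another replicate. Both transport members were called as well. The nodulin-like gene LOC_Os01g02870 had 3.79, 4.24 and 4.45 CPM in Kitaake and 41.5, 85.8 and 41.4 CPM in osbzip62, a log2 fold change of 3.65 (SE 0.29, edgeR adjusted p = 1.36e-05). The sulfate transporter gene LOC_Os03g09930 had 0.650, 1.18 and 1.21 CPM in Kitaake and 5.56, 13.2 and 5.52 CPM in osbzip62, a log2 fold change of 2.84 (SE 0.40, edgeR adjusted p = 4.67e-04). All 4 genes of these classes had osbzip62 libraries above every Kitaake library.

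Of the 4 members without an annotated function, 3 were called higher, LOC_Os04g33450 after passing the filter only through osbzip62. LOC_Os05g13940, a conserved hypothetical protein, had 39.9, 36.8 and 33.0 CPM in Kitaake and 286, 361 and 188 CPM in osbzip62. It had 855, 28.0 and 1468 CPM in OsbZIP62V and 2650, 1020 and 122 CPM in Nipponbare, so that OsbZIP62V replicate 2 lay below every Kitaake library. Its osbzip62 replicates had an SD of 86.8 CPM around a mean of 278 CPM, and its log2 fold change was 2.84 (SE 0.21, edgeR adjusted p = 1.02e-05). LOC_Os01g66200 rose by 3.50 on the log2 scale (SE 0.39, edgeR adjusted p = 1.19e-04). LOC_Os04g33450, with the DUF662 domain, rose by 4.48 on the log2 scale (SE 1.26, edgeR adjusted p = 0.0204), but was not called by DESeq2 or without Kitaake replicate 2, Kitaake replicate 3 or osbzip62 replicate 2. LOC_Os03g51150 had a log2 fold change of 0.79 (SE 0.38, edgeR adjusted p = 0.143).

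The 24 members with other annotations included 21 that were called higher in osbzip62, with log2 fold changes of -0.073 to 8.85 over the 23 that were tested. Among those called, LOC_Os01g65690, LOC_Os05g48270 and LOC_Os08g38170 had passed the filter only through osbzip62. LOC_Os05g31750, annexin D4, of a family that binds membranes with calcium, had 2.17, 1.71 and 1.06 CPM in Kitaake and 12.4, 47.0 and 12.2 CPM in osbzip62. Its log2 fold change was 3.81 (SE 0.56, edgeR adjusted p = 6.07e-04), without overlap. There were 2 glutathione transferase genes, whose enzymes attach glutathione to reactive compounds. LOC_Os10g38580 had 0.867, 2.41 and 1.42 CPM in Kitaake and 11.3, 42.2 and 6.71 CPM in osbzip62, and LOC_Os10g38140 had 10.6, 10.1 and 13.1 CPM in Kitaake and 18.6, 52.8 and 21.0 CPM in osbzip62. Their log2 fold changes were 3.50 (SE 0.65, edgeR adjusted p = 2.42e-03) and 1.35 (SE 0.34, edgeR adjusted p = 0.0114), both without overlap, and the second was not called without Kitaake replicate 2 or osbzip62 replicate 2. Further members of this class, given as examples after their values were seen, acted on wall polysaccharides or aromatic compounds. They were a mixed-linked glucan synthase (LOC_Os08g06380, log2 fold change 2.58, SE 0.55, edgeR adjusted p = 5.35e-03), beta-galactosidase 9 (LOC_Os06g37560, log2 fold change 4.01, SE 0.65, edgeR adjusted p = 1.07e-03) and the flavone synthase CYP93G1 (LOC_Os04g01140, log2 fold change 3.69, SE 0.86, edgeR adjusted p = 7.95e-03). The inositol oxygenase gene LOC_Os06g36560 had 4.99, 4.41 and 5.82 CPM in Kitaake and 21.9, 18.6 and 15.5 CPM in osbzip62, a log2 fold change of 1.80 (SE 0.19, edgeR adjusted p = 7.59e-05), and replicate 2 was not its highest library. LOC_Os03g19220, an Lg106-like family protein, was the 1 tested member with a negative log2 fold change (-0.073, SE 0.33, edgeR adjusted p = 0.889).

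The single transcription factor among the annotated members, the Myb gene LOC_Os05g51160, had 2.49, 3.35 and 2.63 CPM in Kitaake and 3.08, 9.15 and 2.59 CPM in osbzip62. Apart from replicate 2, its osbzip62 libraries lay within the Kitaake range, and its log2 fold change of 0.69 (SE 0.44, edgeR adjusted p = 0.254) was not called. It had 20.9, 3.96 and 30.1 CPM in OsbZIP62V and 27.3, 23.8 and 0.713 CPM in Nipponbare. The H+ pyrophosphatase gene LOC_Os06g08080, whose product pumps protons with energy from pyrophosphate, had 8.13, 6.59 and 5.57 CPM in Kitaake and 9.50, 16.1 and 4.68 CPM in osbzip62. Its groups overlapped, and its log2 fold change of 0.49 (SE 0.36, edgeR adjusted p = 0.335) was not called. It varied widely in Nipponbare, with 238, 28.0 and 3.51 CPM. Of the 10 members without a paired locus, 5 were called higher in osbzip62, with log2 fold changes of 0.77 to 3.93 over all 10.

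**Figure D5:**
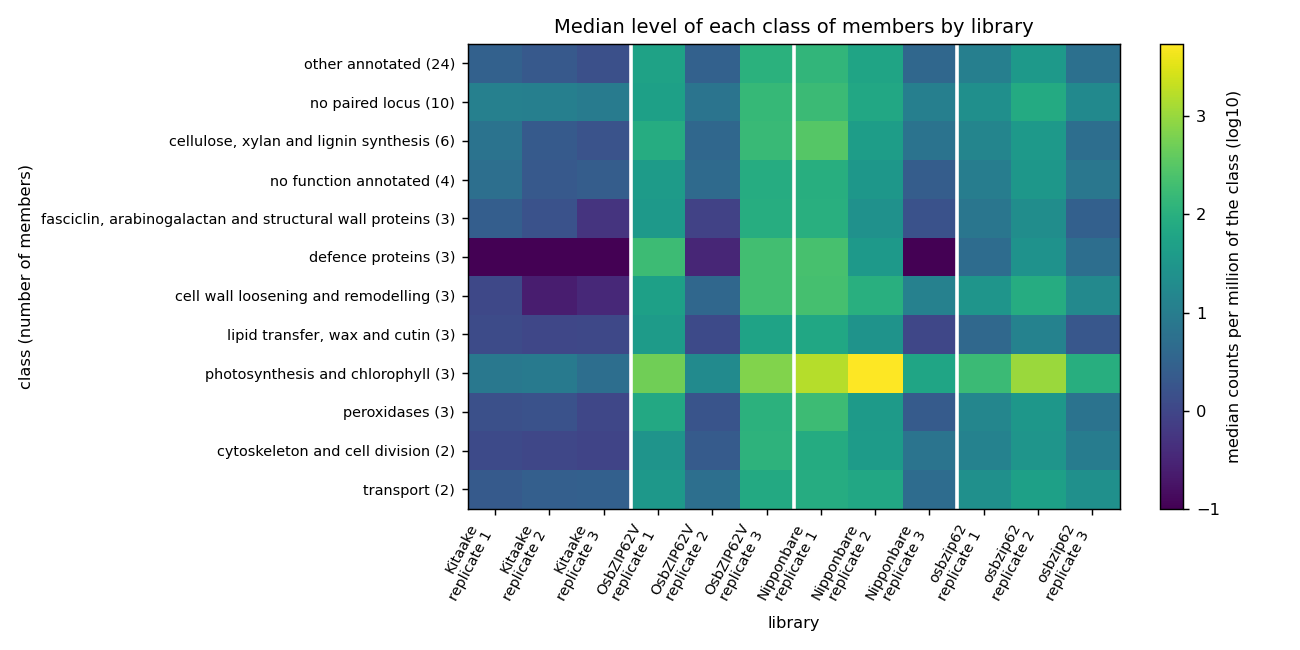
Median level of the members of each class with at least 2 members (rows, with the number of members) in each library (columns), as log10 CPM, with levels under 0.1 CPM shown at that value. In every row OsbZIP62V replicate 2 and Nipponbare replicate 3 lie below the other replicates of their group, an order that the rule fixed. The photosynthesis class has its highest median (5482 CPM) in Nipponbare replicate 2.

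Among genes that are not members, the secondary-wall, mesophyll and root lists were lowest in OsbZIP62V replicate 2 and Nipponbare replicate 3 of their groups. The lists of dividing cells and epidermis followed this less or not at all in OsbZIP62V. These lists hold only genes paired with a locus, which are genes the study listed as changed. Their genes are not independent of the rule. A gene can miss membership by the minimum of 20 CPM or by meeting the rule in 1 group alone. The photosystem II gene LOC_Os07g05360 met it in Nipponbare alone, with 323, 59.0 and 1.87 CPM in Nipponbare replicates 1, 2 and 3. The summed level of the 20 secondary-wall or vascular genes that are not members was 335, 53.3 and 735 CPM in OsbZIP62V replicates 1, 2 and 3 and 993, 439 and 106 CPM in Nipponbare replicates 1, 2 and 3. It was 93.2 to 107 CPM in Kitaake, with 6 to 11 of the 20 genes at 0, and 102, 277 and 96.7 CPM in osbzip62, with 2 to 4 at 0. The 12 mesophyll genes that are not members summed to 3348 to 3531 CPM in Kitaake and to 7179, 4759 and 9369 CPM in OsbZIP62V. They summed to 15914, 21739 and 11341 CPM in Nipponbare and to 8848, 13557 and 7794 CPM in osbzip62, with at most 1 of the 12 at 0 in any library. The leaf label thus has its markers in every library. The 26 genes of dividing cells that are not members summed to 277, 278 and 527 CPM in OsbZIP62V replicates 1, 2 and 3, so that replicate 2 was not low, and to 658, 435 and 293 CPM in Nipponbare. They were higher in osbzip62 (713 to 1078 CPM) than in Kitaake (237 to 276 CPM), and among the osbzip62 libraries replicate 2 was the lowest. The 40 epidermis and cuticle genes that are not members summed to 1849, 1713 and 4598 CPM in OsbZIP62V, with replicate 2 close to replicate 1, and to 3511, 2351 and 1820 CPM in Nipponbare. They summed to 763 to 1171 CPM in Kitaake and 2038 to 2497 CPM in osbzip62. The 6 root genes summed to 34.5 to 48.2 CPM in Kitaake and to 37.4 to 55.2 CPM in osbzip62. They summed to 115, 65.8 and 224 CPM in OsbZIP62V replicates 1, 2 and 3 and to 253, 94.4 and 40.2 CPM in Nipponbare replicates 1, 2 and 3. The part of such cell types in the levels of the members was not tested.

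The comparisons that include the libraries used by the rule are no test of the members, because the rule set which of their libraries were high and low, and the counts are given without any reading. In OsbZIP62V against Kitaake, 28 of 69 members were called higher by edgeR (64 passed the filter), beside 3.87% of 19864 tested genes. DESeq2 called 61 members higher, beside 1767 of the 28666 genes with a count in these libraries. By edgeR 0 members were called lower, beside 2.06% of the tested genes, and also 0 at an unadjusted p under 0.05. DESeq2 called 0 lower, beside 531 of the 28666 genes. In osbzip62 against Nipponbare, 0 members were called higher and 0 lower by edgeR, beside 0.377% and 0.0441% of 20398 tested genes. At an unadjusted p under 0.05 edgeR had 0 members higher and 6 lower, and the share of all genes at that level was not counted. DESeq2 called 0 higher and 2 lower, beside 521 and 364 of the 28746 genes with a count in these libraries. With 1 library left out, the count called higher in OsbZIP62V ranged from 0 to 69, which was the value without OsbZIP62V replicate 2, and the count called lower in osbzip62 from 0 to 6, which was the value without Nipponbare replicate 3. The first of these comparisons shares the Kitaake libraries, and the second the osbzip62 libraries, with the comparison of osbzip62 and Kitaake.

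The members just inside the threshold of 25% were LOC_Os10g38580 at 23.7%, LOC_Os09g27700 at 24.5% and OS09G0533900 at 24.99%, as the larger of their ratios in OsbZIP62V and Nipponbare. Just outside lay OS01G0926600 at 25.7%, LOC_Os04g02620 at 26.2% and OS07G0503500 at 27.0%. Over the members the median ratio of the low replicate to the lower of the other replicates was 5.79% in OsbZIP62V and 7.22% in Nipponbare, while over the 5267 genes these medians were 113% and 99.1%. The members lay on 11 of the chromosomes, with 14 on chromosome 1, 11 on chromosome 5 and 9 on chromosome 6.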

How the data were processed

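RNA-seq of 12 rice leaf libraries was used. The authors made TruSeq libraries, which do not mark strand, trimmed reads with SeqPrep and Sickle and aligned them with HISAT2 2.1.0. Bowtie2 2.2.3, HTSeq 0.6.1p2 and, as genome, IRGSP-1.0 appear in the submitters' processing notes. The sources used here name no annotation release. The deposited counts are whole reads for each gene and were not normalized. The deposited RPKM are these counts divided by gene length and library total, and were used only to pair identifiers and to compare levels between genes. CPM were counts divided by the column total, without further factors.

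Loci were paired with identifiers through the fold changes printed in the study's lists, within a relative difference of 6e-06 and on the same chromosome, as a key only. The pairs osbzip62 and Kitaake, OsbZIP62V and Kitaake, and osbzip62 and Nipponbare were each fitted with edgeR's quasi-likelihood test (TMM, default filter, 6 libraries each, Benjamini-Hochberg over all tested genes). The fit was checked on counts simulated from the osbzip62 and Kitaake libraries alone. No simulated library shifted a set of genes together, so the check does not cover data with such libraries. Fits were run in R 4.3.3 with edgeR 4.0.16, DESeq2 1.42.0 and limma 3.58.1. Tables and plots were made in Python 3.11.15 with pandas 2.3.3, numpy 2.4.6, matplotlib 3.10.9 and scipy 1.17.1. Standard errors are the log2 fold change divided by the root of F. A call needed an adjusted p under 0.05 with a log2 fold change beyond 1 in either direction. With 3 against 3 libraries an exact permutation test cannot go below p = 0.1, so none was run.

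The members, classes and lists were chosen with earlier results of these data known. Named genes are OsbZIP62, up to 4 paired members of highest mean RPKM per class, the 6 largest called changes in osbzip62 against Kitaake, and the 3 genes on each side of the threshold. Classes and marker lists were drawn by keyword from the annotations of paired loci. Alternatives were other size factors, DESeq2, no filter, no fold minimum, a replicate block, each library left out, and other thresholds of the rule.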

Additional observations from a re-analysis of the deposited data

How the results depend on the processing

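The number of members was 83 when the limit of 25% was loosened to 33.3% and 60 when it was tightened to 20%, and 68 with TMM factors and 67 with median-of-ratios factors, and 64 of the 69 were kept with either set of factors. It was 143 with a minimum of 10 CPM and 31 with 40 CPM. In osbzip62 against Kitaake, the count of members called higher ranged from 38 to 60 when 1 library was left out, and it was 56 with median-of-ratios factors, 60 without the filter, 49 with DESeq2 and 55 without a fold minimum. The count called lower was 0 in each of these. In OsbZIP62V against Kitaake, the count called higher ranged from 0 to 69 when 1 library was left out and was 61 with DESeq2, 30 with median-of-ratios factors and 36 without the filter. In osbzip62 against Nipponbare, the count called lower ranged from 0 to 6 when 1 library was left out and was 2 with DESeq2. Where a count moved with DESeq2, the cause was not tested. With TMM factors, the median ratios of osbzip62 replicate 2 to replicates 1 and 3 and of osbzip62 to Kitaake moved by less than the spread between libraries. Of the named genes, LOC_Os05g51160 and LOC_Os01g01660 changed sign without osbzip62 replicate 2, to log2 fold changes of -0.071 and -0.643. The value of LOC_Os05g51160 ranged from -0.071 to 0.98 when 1 library was left out.

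The replicate numbers did not pair the libraries. Deviations of same-numbered libraries from their group means had correlations of -0.022, -0.023 and -0.055 in osbzip62 and Kitaake, 0.18, 0.010 and -0.045 in OsbZIP62V and Kitaake, and -0.27, 0.23 and 0.40 in osbzip62 and Nipponbare. The largest correlations were between unlike numbers, for osbzip62 replicate 2 with Nipponbare replicate 3 (-0.60) and replicate 1 (0.55). With the replicate number as a block, 58 members were called higher in osbzip62 than in Kitaake, 10 higher in OsbZIP62V than in Kitaake, and 0 in either direction in osbzip62 against Nipponbare.

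In Kitaake, 5 members had 1 to 3 counts over the 3 libraries, so their ratios are known only within the wide counting intervals given. PCR reads without molecular identifiers are not independent molecules, and the intervals cover counting error only. Cultivar and genotype cannot be told apart between osbzip62 and Kitaake, and 1 line stood for each transgenic group.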
